A study of Rattus norvegicus with 40 samples.

Results

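The comparison described here sets 60 min against 30 min of ischemia+reperfusion in isolated neonatal rat ventricular myocytes, the contractile cells of the newborn heart in culture. Its members are the 8 of 40 arrays whose titles carry those labels: 4 at 60 min and 4 at 30 min. Each group of 4 held 2 duplicate arrays from each of 2 cell preparations, and the same preparation numbers recur in all 10 groups of the series. Ischemia was imposed on the cultures by coverslip hypoxia, in which a coverslip lying on the cells limits their access to oxygen and medium. Total RNA was amplified to biotin-labelled cRNA and hybridised to Affymetrix rat arrays. The other groups of the series are ischemia+reperfusion at 0, 10 and 120 min, and ischemia without reperfusion at 0, 10, 30, 60 and 120 min. No genotype, strain, drug or animal age is given in the labels, and the groups compared differ in the labelled time alone. The labels leave unstated whether the minutes count the ischemia or the reperfusion, and whether duplicates were separate cultures or repeat arrays. Duplicates were averaged, so the p-values rest on how far the 2 preparations disagree over all 10 groups, including those outside the comparison. Part of that spread may be technical. The cells are a culture of immature myocytes without blood flow, nerves or circulating cells.

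Heart muscle cells that lose oxygen and regain it face damaged proteins, shifts in calcium and bursts of signalling. Misfolded proteins release heat shock factor 1, which binds paired GAA-type elements in promoters and drives the heat shock protein genes; the HSP70 protein encoded by Hspa1a refolds client proteins together with J-domain partners and nucleotide exchange factors. Kinase signalling and calcium switch on the immediate early genes, which encode short-lived transcription factors such as Fos, Jun, Egr1 and Atf3. Low oxygen itself acts through the hypoxia-inducible factors (HIF), whose targets include glycolytic enzymes and glucose transporters.

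Every level below is log2(normalised intensity + 16), every difference is the 60 min mean minus the 30 min mean on that scale, and errors of differences are standard errors. The test was limma's moderated test over 18625 probe sets, with the preparation as a block and n = 2 preparations a group after averaging duplicates. An adjusted p under 0.05 (Benjamini-Hochberg) counted as a call.

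The 8 arrays were alike at large, with pairwise Pearson correlations from 0.967 to 0.989 over probe sets. Once every probe set was centred over the 40 arrays, 1 array stood apart most from its label. The 30 min array of preparation 2, duplicate 1, correlated at 0.34 with the 60 min group, against 0.14 with the other 30 min arrays. The 30 min array of preparation 1, duplicate 2, likewise correlated at 0.22 with the 60 min group, against 0.12 with its own. That of preparation 2, duplicate 2, was nearly level, at 0.28 against 0.29. All 4 arrays at 60 min correlated more closely with their own group, at 0.28 to 0.50, than with the 30 min group, at 0.15 to 0.36. Outside the comparison, 1 array of each arm at 120 min had Hspa1a at the level of the other arm: the ischemia+reperfusion array of preparation 2, duplicate 1, at 9.75 and the ischemia array of preparation 2, duplicate 2, at 13.15. Both enter the shared estimate of the spread in the fit of all 10 groups. Key results are therefore given a second time with the 120 min groups left out, a setting added after the values were seen, and with the 30 min array that stood apart left out.

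No probe set passed at 60 against 30 min in the fit of all groups: 0 of 18625 (0%) had an adjusted p under 0.05, and the lowest was 0.103, for Icmt. At an unadjusted p under 0.05, limma gave 1245 probe sets (6.68%), 644 higher (3.46%) and 601 lower (3.23%) at 60 min. That split depended on the scale of the arrays: it was 975 higher and 109 lower on the deposited scale, and 386 higher and 1012 lower with array medians centred. Taking 1 probe set for each of 10483 genes, 378 genes were higher (3.61%) and 277 lower (2.64%) at that threshold. The 60 min arrays lay wholly above the 30 min arrays for 408 genes (3.89%) and wholly below them for 259 (2.47%). The median standard error of a difference was 0.118, so the 95% interval of a typical probe set reached 0.258 to either side. Without the 30 min array that stood apart, 1 probe set passed (0.00537%), that of Icmt. Without the 120 min groups, 13 passed (0.0698%), 8 of them higher at 60 min. The named ones were Hspa1a, Fosb, Dnaja1, Zfand2a, Hsph1 and Slfn2, which were higher at 60 min, and Icmt, Gsg1, Fsd2 and Ssb, which were lower. With the 30 min array that stood apart left out as well, 14 passed (0.0752%): of these 10 named genes, Zfand2a (adjusted p = 0.321 in limma), Slfn2 (0.281) and Ssb (0.391) no longer did, and Ssb differed by -0.33 in place of -0.49.

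Hspa1a had the largest positive difference of the genes named here. Hspa1a, the stress-inducible HSP70, was at 12.96 and 12.76 on the 60 min arrays of preparation 1 and at 13.02 and 13.04 on those of preparation 2, against 9.72, 9.73, 9.60 and 10.30 on the 30 min arrays. The groups did not overlap, and the gap between them was wider than the spread within either. The difference was 3.11 ± 0.587, or 8.63-fold on this scale, and close in both preparations (3.14 and 3.08). Its adjusted p was 0.223 in the fit of all groups (limma). Without the 120 min groups the difference was unchanged, the standard error was 0.143 and the adjusted p 6.25e-05. That setting was prompted by the 120 min values of Hspa1a itself, so its low p for Hspa1a is not independent support for a rise. Without the 30 min array that stood apart, the difference was 2.94 ± 0.598 (adjusted p = 0.206 in limma); without both that array and the 120 min groups it was 2.94 ± 0.195 (adjusted p = 0.00167). Hspa1a on the array that stood apart was the lowest of the 4 at 30 min, on the far side from the 60 min group.

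Of the genes linked to HSP70, Hsph1, Dnaja1 and Zfand2a passed without the 120 min groups and are described for that reason, chosen after their values were seen. In that setting their differences were unchanged and only the standard errors fell, to 0.0993, 0.0982 and 0.132. As the setting was prompted by the 120 min values of Hspa1a, these low p-values are not independent support for a rise. Hsph1 encodes HSP105, a nucleotide exchange factor for HSP70. It was at 11.41, 11.33, 11.36 and 11.34 at 60 min, against 10.83, 10.77, 10.33 and 10.48 at 30 min, with no overlap. The difference was 0.75 ± 0.179 (adjusted p = 0.376 in limma, 0.0449 without the 120 min groups), and a second probe set of Hsph1 gave 0.87 ± 0.226. Dnaja1 encodes a J-domain co-chaperone that hands clients to HSP70. It was at 11.08, 11.22, 11.26 and 11.35 at 60 min, against 10.18, 10.23, 10.12 and 10.34 at 30 min, again without overlap. The difference was 1.01 ± 0.206 on this probe set (adjusted p = 0.277 in limma, 0.0114 without the 120 min groups) and 0.45 ± 0.141 on a brighter one, so the size depended on the probe set. Zfand2a, a zinc finger protein induced by arsenite and other proteotoxic stress, was at 9.25, 9.43, 9.24 and 9.55 at 60 min, against 8.25, 8.27, 7.49 and 8.87 at 30 min. Its difference was 1.15 ± 0.417 (adjusted p = 0.618 in limma, 0.0232 without the 120 min groups). The 30 min arrays of Zfand2a spread widely in preparation 2, and without the array that stood apart the difference was 0.80 ± 0.445 (adjusted p = 0.671 in limma). With the 120 min groups left out too it was 0.80 ± 0.224 (adjusted p = 0.321), so the call for Zfand2a rested on that array.

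**Figure D1:**
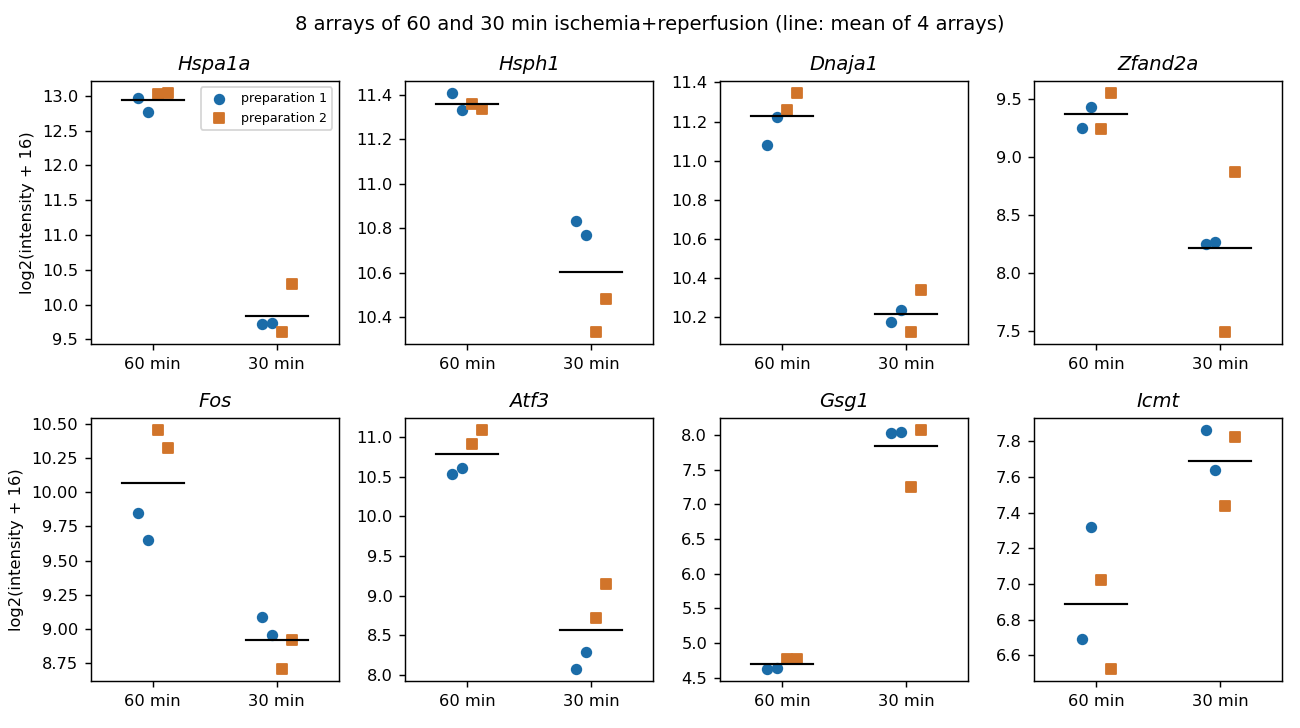
Level of 8 genes, as log2(intensity + 16), on the 4 arrays at 60 min (left) and the 4 at 30 min (right) of ischemia+reperfusion; circles are preparation 1, squares preparation 2, and lines the means of 4 arrays. The groups do not overlap for any of the 8 genes, which were chosen after their values were seen, so this follows in part from the choice. Over all genes, the 60 min arrays lie wholly above for 3.89% and wholly below for 2.47%. Hspa1a lies between 12.76 and 13.04 at 60 min and between 9.60 and 10.30 at 30 min, while Gsg1 and Icmt lie lower at 60 min.

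The promoters of 4 chaperone genes are printed as background, since heat shock genes share a known element. The 4 were chosen after their values were seen, and none passed after adjustment in the fit of all groups. They are the 250 bases before the transcription start in RefSeq (build GRCr8), 5′ to 3′ on the gene's strand. Capitals mark the matches to GAANNTTC or TTCNNGAA, the paired core of a heat shock element, searched on both strands; as each motif is its own reverse complement, the strands give the same matches, and neighbouring matches may overlap.
Hspa1a (chr20:3859506-3859755, plus strand): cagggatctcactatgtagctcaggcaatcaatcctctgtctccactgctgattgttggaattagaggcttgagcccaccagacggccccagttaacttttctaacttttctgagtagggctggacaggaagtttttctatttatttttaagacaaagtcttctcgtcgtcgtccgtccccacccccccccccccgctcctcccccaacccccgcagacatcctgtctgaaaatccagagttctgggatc
Hsph1 (chr12:10427118-10427367, plus strand): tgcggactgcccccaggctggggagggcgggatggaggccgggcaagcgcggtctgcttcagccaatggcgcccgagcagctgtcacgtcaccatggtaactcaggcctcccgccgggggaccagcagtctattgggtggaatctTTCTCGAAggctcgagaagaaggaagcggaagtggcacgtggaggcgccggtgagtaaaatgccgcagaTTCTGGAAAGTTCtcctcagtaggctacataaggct
Dnaja1 (chr5:60638154-60638403, plus strand): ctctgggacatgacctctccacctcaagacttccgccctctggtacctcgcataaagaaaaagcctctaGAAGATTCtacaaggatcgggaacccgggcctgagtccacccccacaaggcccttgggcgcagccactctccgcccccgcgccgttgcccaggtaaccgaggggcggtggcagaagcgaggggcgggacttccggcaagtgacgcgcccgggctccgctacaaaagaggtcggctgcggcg
Hspb1 (chr12:26432302-26432551, minus strand): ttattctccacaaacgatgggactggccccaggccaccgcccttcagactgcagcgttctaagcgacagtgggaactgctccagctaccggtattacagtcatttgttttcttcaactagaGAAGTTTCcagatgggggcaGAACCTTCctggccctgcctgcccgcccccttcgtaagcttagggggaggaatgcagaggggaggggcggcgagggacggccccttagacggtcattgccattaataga
The Hsph1 window held 3 matches, 2 of them overlapping close to the start site, Hspb1 held 2 and Dnaja1 held 1. The Hspa1a window held 0, which says only that these letters do not occur in the bases before that annotated start. Of the 22 listed heat shock genes with a promoter in the table, 12 held a match (54.5%), against 3619 of 27457 promoters of all genes (13.2%). A match describes the sequence and does not show a site in use.

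Of 25 tested members of the heat shock list, 6 were higher at an unadjusted p under 0.05 and 0 were lower, beside 3.61% and 2.64% of all genes, and 0 passed after adjustment in limma. Without the 30 min array that stood apart, 5 were higher and 1 lower, beside 4.29% and 3.66% of all genes. In that setting 15 of 25 lay above 0, beside 48% of all genes, and the list's median was 0.02. With all arrays, the other members at that threshold were Hspb1, a small heat shock protein (0.21 ± 0.073), Bag3, a co-chaperone of HSP70 (0.33 ± 0.144), and Hspa2, another HSP70 (0.36 ± 0.161, and 0.25 ± 0.172 without the 30 min array that stood apart). Hspb1 was bright at both times, at 13.24 to 13.30 at 60 min against 13.01 to 13.16 at 30 min, so its groups were close but did not overlap. Cryab, a small heat shock protein abundant in heart, differed by -0.02, and the mitochondrial chaperonins Hspd1 and Hspe1 by 0.03 and 0.01. The list's median was 0.03, beside 0.00 over all genes, with 17 of 25 above 0. On the deposited scale it was 0.07, beside 0.08 over all genes. With array medians centred it was -0.07, beside -0.06 over all genes. The median of the list thus took its sign from the scale, as did that of all genes. Dnajb1, a J-domain protein that is inducible by heat, differed by 0.30 ± 0.213 (unadjusted p = 0.181 in limma). The lowest was Hspa1l, an HSP70 best known from testis, at -0.36 ± 0.334 (unadjusted p = 0.306 in limma). The list was thus uneven, with Hspa1a far from the rest of its members.

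Over the 5 labelled times of ischemia+reperfusion, the mean of Hspa1a was somewhat above its start by 30 min and much higher at 60 and 120 min. Hspa1a averaged 9.15, 9.29, 9.84, 12.95 and 12.30 at 0, 10, 30, 60 and 120 min of ischemia+reperfusion. It averaged 9.18, 9.38, 9.29, 9.24 and 10.68 over the same times of ischemia without reperfusion. The level at 120 min carries the pair of arrays described above in both arms. Between 60 and 30 min of ischemia alone, Hspa1a differed by -0.05. The difference between the arms' changes was 3.16 ± 0.83 for Hspa1a (adjusted p = 0.861 in limma, 0.00121 without the 120 min groups). For Dnaja1 it was 1.03 ± 0.291 (adjusted p = 0.947 in limma, 0.11 without the 120 min groups). Across all probe sets, 0 passed this test of the arms in limma (0%), 741 had an unadjusted p under 0.05 (3.98%), and 5 passed without the 120 min groups (0.0268%).

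**Figure D2:**
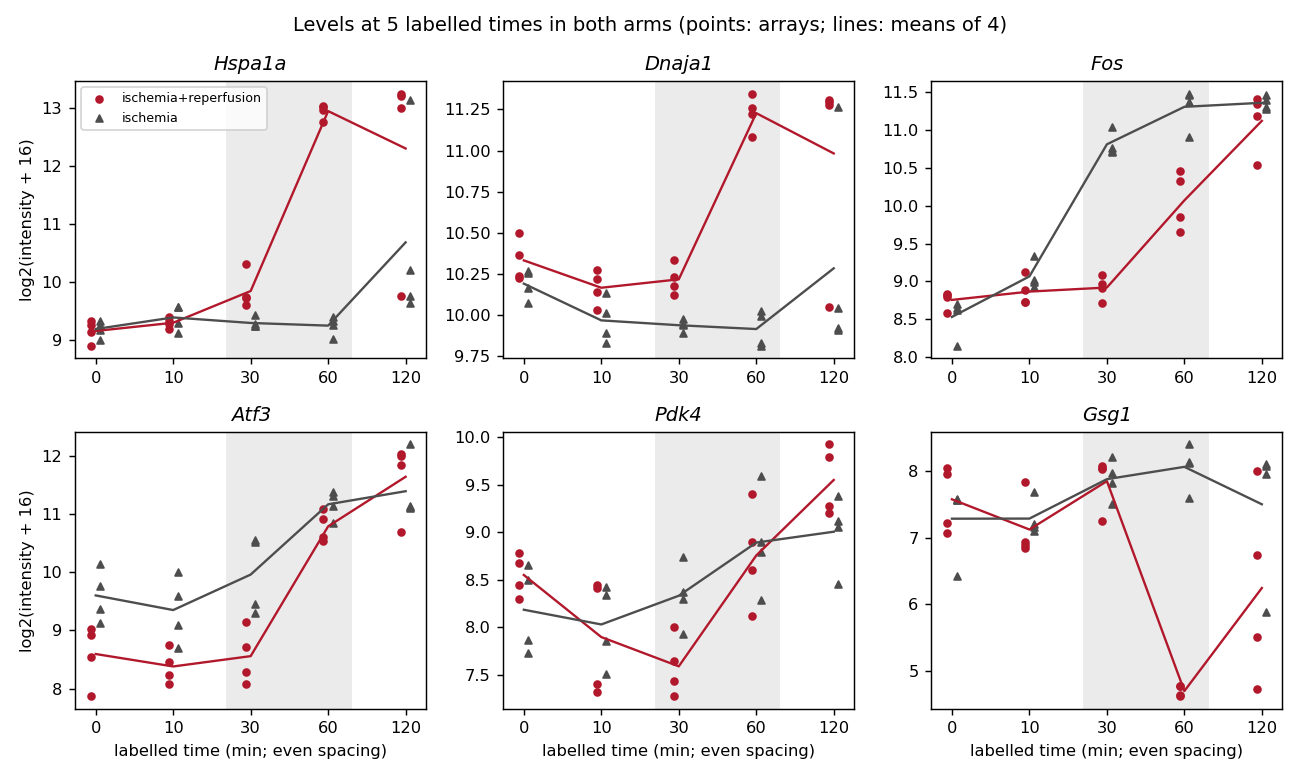
Levels of 6 genes, as log2(intensity + 16), at the 5 labelled times (0, 10, 30, 60 and 120 min, evenly spaced) of ischemia+reperfusion (circles) and ischemia alone (triangles); points are arrays, lines are means of 4, and the shaded span holds 30 and 60 min. Hspa1a and Dnaja1 are higher at 60 than at 30 min in the ischemia+reperfusion arm and level in the ischemia arm, Fos and Atf3 are lower with reperfusion than with ischemia at 30 min, and Gsg1 averages 4.70 at 60 min of ischemia+reperfusion; at 120 min 1 array of each arm lies with the other arm for Hspa1a.

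Immediate early genes lay mostly above 0. Of 34 tested members, 7 were higher at an unadjusted p under 0.05 and 0 lower, beside 3.61% and 2.64% of all genes. Of the 34, 31 lay above 0, beside 49.8% of all genes. The list's median was 0.29, beside 0.00 over all genes, and it stayed above 0 on the deposited scale (0.35) and with array medians centred (0.21). On those scales the median of all genes was 0.08 and -0.06. The 60 min arrays lay wholly above the 30 min arrays for 11 of the 34, beside 3.89% of all genes. Without the array that stood apart the median was 0.22 and 29 lay above 0, beside 48% of all genes. In preparation 1, 30 of 34 lay above 0 (51.5% of all genes), and in preparation 2, 28 of 34 (48.4%). No member passed after adjustment in limma; without the 120 min groups 1 did, Fosb.

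Fos, the AP-1 subunit, was at 9.85, 9.65, 10.46 and 10.33 at 60 min, against 9.09, 8.96, 8.71 and 8.92 at 30 min. The difference was 1.15 ± 0.204 (adjusted p = 0.214 in limma), and it was larger in preparation 2 (1.58) than in preparation 1 (0.73). Atf3, a stress-induced factor of the ATF/CREB family, was at 10.54, 10.62, 10.91 and 11.10 at 60 min, against 8.07, 8.29, 8.72 and 9.15 at 30 min, which is 2.23 ± 0.434 (adjusted p = 0.236 in limma). In both genes the preparations ran apart at the same time point while the groups stayed separate. Fosb, a second AP-1 subunit, was at 8.54, 7.71, 8.86 and 8.83 at 60 min, against 6.06, 5.99, 6.05 and 6.24 at 30 min, where it was dim. Its difference was 2.40 ± 0.787 (adjusted p = 0.562 in limma, 0.00232 without the 120 min groups). In the second fit, added after the values were seen, the difference was the same and only the standard error fell, to 0.187. Egr1, a zinc finger factor, was at 10.91 to 11.12 at 60 min, against 10.26 to 10.56 at 30 min, a difference of 0.64 ± 0.142. Jun, the partner of Fos in AP-1, was at 10.70, 11.33, 10.98 and 11.59 at 60 min, against 10.58, 10.74, 10.47 and 10.67 at 30 min. Its groups overlapped by 1 array, and the difference was 0.54 ± 0.124. The 60 min arrays of Jun split by duplicate, at 10.70 and 10.98 on duplicate 1 against 11.33 and 11.59 on duplicate 2.

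These genes had different courses in the arms. Fos averaged 8.76, 8.87, 8.92, 10.07 and 11.12 from 0 to 120 min of ischemia+reperfusion, and 8.53, 9.07, 10.81, 11.31 and 11.36 over the same times of ischemia. In ischemia, then, Fos was already high at 30 min, and its 60 minus 30 min difference there was 0.50. Egr1 averaged 10.71, 10.44, 10.38, 11.02 and 11.89 from 0 to 120 min of ischemia+reperfusion, so its 60 min level lay nearer to the 0 min level than to the 30 min level. Jun averaged 11.16 at 0 min, 10.61 at 30 min and 11.15 at 60 min of ischemia+reperfusion: its 60 min level was that of the start. Between 60 and 30 min of ischemia alone, Atf3 also differed, by 1.21 ± 0.434. The difference between the arms' changes was 0.66 ± 0.289 for Fos, 1.02 ± 0.614 for Atf3 and 0.45 ± 0.175 for Jun, and none passed after adjustment in limma. For the whole list, the ischemia arm had a median difference of 0.06 with 24 of 34 above 0, beside 50.8% of all genes.

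**Figure D3:**
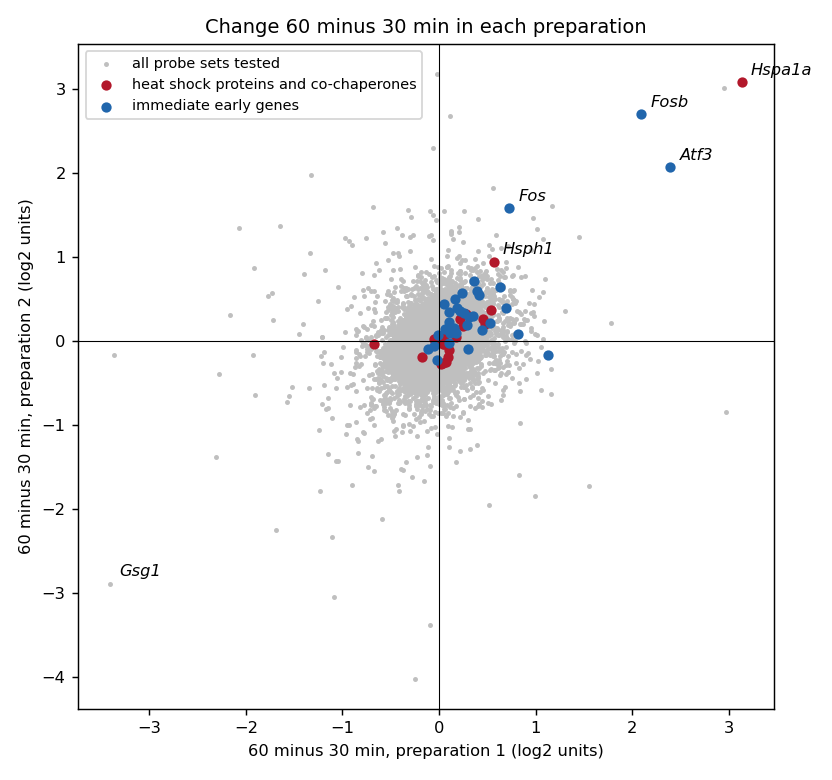
Difference between 60 and 30 min of ischemia+reperfusion (log2 units) in preparation 1 (horizontal) and preparation 2 (vertical) for all 18625 probe sets tested (grey), with the heat shock list in red and the immediate early list in blue. Hspa1a, Fosb, Atf3, Fos and Hsph1 lie to the upper right and Gsg1 to the lower left; over all probe sets the Pearson correlation of the preparations was 0.29.

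Regulators that dampen signalling moved unevenly. Of 25 tested feedback regulators, 3 were higher at an unadjusted p under 0.05 and 1 lower, with a median of 0.12 and 16 above 0, beside 3.61% higher, 2.64% lower and 49.8% above 0 over all genes. Gadd45b, a stress sensor that activates p38 and JNK signalling, was at 9.76, 9.73, 9.86 and 10.17 at 60 min, against 9.13, 9.14, 9.05 and 9.39 at 30 min, with no overlap. The difference was 0.70 ± 0.223 (adjusted p = 0.541 in limma). Cish, a suppressor of cytokine receptor signalling, differed by 0.40 ± 0.162, and Rgs2, which shortens G protein signals, by 0.31 ± 0.143, or 0.30 without the 30 min array that stood apart (unadjusted p = 0.06 in limma). Spry4, an inhibitor of growth factor signalling, differed by -0.17 ± 0.060.

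Inflammatory genes lay mostly above 0. Of 24 tested NF-kB and cytokine genes, 23 lay above 0, beside 49.8% of all genes. Their median was 0.16, and it stayed above 0 on the deposited scale (0.24) and with medians centred (0.10), beside 0.08 and -0.06 over all genes. At an unadjusted p under 0.05, 3 were higher and 0 lower, beside 3.61% and 2.64% of all genes: Rela, a subunit of NF-kB (0.24 ± 0.079), Nfkbiz, a nuclear modulator of NF-kB (0.50 ± 0.168), and Ptgs2, the inducible cyclooxygenase (0.36 ± 0.152). Nfkbiz was at 10.25, 10.34, 10.19 and 10.39 at 60 min, against 9.94, 9.70, 9.46 and 10.05 at 30 min, so the groups did not overlap; without the 30 min array that stood apart its difference was 0.36 ± 0.19 (unadjusted p = 0.0861 in limma). Il6 and Cxcl10, cytokines of the same list, differed by 0.42 and 0.39 with unadjusted p of 0.0876 and 0.0959 in limma. In ischemia alone, 12 of 24 lay above 0, beside 50.8% of all genes. Of 17 interferon-stimulated genes, 14 lay above 0 with a median of 0.17, beside 49.8% of all genes above 0. Mx1, a GTPase against viruses, was the 1 member at an unadjusted p under 0.05 (0.28 ± 0.117), beside 3.61% of all genes. None of these genes passed after adjustment in limma.

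Sums of the macrophage markers overlapped between the groups. The brightest markers weigh most in such a sum, and the part of macrophages in the inflammatory differences was not tested. Over the 15 macrophage markers on the array, the summed intensity ran from 8905 to 10130 at 60 min, against 8940 to 10205 at 30 min. Itgam and Cd163, which mark myeloid cells and macrophages, were at 0 on some or all of the arrays. Cd68, a lysosomal protein of macrophages, was at 8.75, 8.59, 7.55 and 7.39 at 60 min, against 8.81, 8.77, 8.93 and 8.73 at 30 min. The low values were both in preparation 2, where the difference was -1.36, against -0.12 in preparation 1; the mannose receptor gene Mrc1 differed by -0.28 in preparation 2 and by -0.23 in preparation 1. In these bulk cultures, fewer cells of a type and less RNA per cell cannot be told apart.

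Genes of oxygen sensing and glucose use differed little. Of 33 tested HIF targets, 0 were at an unadjusted p under 0.05 in limma in either direction, and 11 lay above 0, beside 49.8% of all genes. The median was -0.07. It was -0.01 on the deposited scale and -0.15 with medians centred, beside 0.08 and -0.06 over all genes. Ankrd37, an ankyrin protein induced by hypoxia, had the smallest p of the list: 8.31, 6.61, 8.19 and 6.95 at 60 min, against 8.05, 7.80, 8.67 and 8.62 at 30 min, or -0.77 ± 0.381. The low 60 min arrays of Ankrd37 were duplicate 2 of either preparation, so the duplicates ran further apart than the groups. Hk2, which phosphorylates glucose, had the same split, at 9.73 and 9.89 on duplicate 1 and 8.70 and 9.09 on duplicate 2 at 60 min, and differed by -0.54 ± 0.331. Vegfa, the angiogenic factor, and Pdk1, the kinase that closes pyruvate dehydrogenase in hypoxia, differed by 0.01 and -0.01. Of 18 glycolytic enzymes, 0 were at an unadjusted p under 0.05 in limma and the median was -0.02.

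Among mitochondrial fuel genes, Pdk4 stood out. Pdk4, a kinase that inhibits pyruvate dehydrogenase and spares glucose, was at 8.12, 8.60, 8.90 and 9.40 at 60 min, against 7.27, 7.43, 8.01 and 7.64 at 30 min. The groups did not overlap, and the difference was 1.17 ± 0.229 (adjusted p = 0.239 in limma), against 0.56 ± 0.229 in ischemia alone. A dimmer probe set of Pdk4 gave 0.28 in ischemia+reperfusion. Over 0, 10, 30, 60 and 120 min of ischemia+reperfusion it averaged 8.55, 7.90, 7.59, 8.75 and 9.55, so 30 min was the lowest of the 5 times and 60 min was near the start. Ppargc1a, a coactivator of mitochondrial genes, differed by -0.39 ± 0.165, but by -0.25 ± 0.203 without the 30 min array that stood apart (unadjusted p = 0.241 in limma). The other 21 of 23 fatty acid oxidation genes were not at an unadjusted p under 0.05; the list had 1 higher and 1 lower, beside 3.61% and 2.64% of all genes, and without that array 0 lower. Of 43 respiratory chain and ATP synthase subunits, 0 were at that threshold in limma, with a median of -0.02; Atp5f1a, a subunit of the ATP synthase, differed by -0.10 ± 0.054. Of 20 sterol synthesis genes, Tm7sf2, a sterol reductase, was the 1 at that threshold (-0.30 ± 0.124), beside 2.64% of all genes lower.

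Of 25 sarcomere genes, 2 were higher at an unadjusted p under 0.05 and 0 lower, beside 3.61% and 2.64% of all genes, and the median was -0.01. Xirp1, which encodes Xin, an actin-binding repeat protein of cardiac cell junctions, was at 11.71, 11.62, 11.60 and 11.73 at 60 min, against 11.40, 11.48, 11.15 and 11.22 at 30 min. Its difference was 0.35 ± 0.092 (adjusted p = 0.434 in limma), and in ischemia alone it was 0.21. Tcap, the telethonin that caps titin at the Z-disc, was at 11.51 to 11.84 at 60 min, against 10.63 to 11.10 at 30 min. The difference was 0.71 ± 0.27, and 0.59 ± 0.28 (unadjusted p = 0.0573 in limma) without the 30 min array that stood apart, which held the lowest value. Of 22 calcium handling and ion channel genes, 0 were at that threshold in limma. The natriuretic peptide genes Nppa and Nppb, both bright at both times, differed by -0.06 and -0.05.

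Protein quality control beyond the heat shock genes showed small differences. Of 20 endoplasmic reticulum genes, 3 were higher at an unadjusted p under 0.05 and 0 lower, beside 3.61% and 2.64% of all genes. They were Dnajb9, a J-domain co-chaperone of that compartment (0.31 ± 0.099), Xbp1, the factor spliced by IRE1 (0.18 ± 0.068, and 0.15 without the 30 min array that stood apart), and Syvn1, a ubiquitin ligase of its degradation pathway (0.19 ± 0.084). Of 19 genes of the integrated stress response, Atf3 alone was at that threshold, beside 3.61% of all genes higher, and Ppp1r15a, the phosphatase subunit that ends the response, differed by 0.29 ± 0.191. Of 23 NRF2 targets, 32 proteasome subunits, 19 autophagy genes and 30 cytosolic ribosomal proteins, 0 were at that threshold in limma. The proteasome median was -0.01, and Psmc5, an ATPase subunit and 1 of the 2 with the smallest p, differed by -0.10 ± 0.058. Bcl2l11, which encodes the death promoter BIM, was the 1 of 12 BCL2 family genes at that threshold (0.41 ± 0.183), beside 3.61% of all genes, and a dimmer probe set of it gave 0.93.

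Growth control and RNA processing genes gave a few single differences. Cdkn1a, the p21 inhibitor of cyclin kinases, was at 11.43, 11.47, 11.46 and 11.51 at 60 min, against 11.04, 10.97, 10.91 and 11.20 at 30 min, with no overlap. The difference was 0.44 ± 0.142 (adjusted p = 0.553 in limma). Cdkn1a was the 1 of 32 cell cycle genes at an unadjusted p under 0.05, beside 3.61% of all genes higher. Of the 32, 6 lay above 0, beside 49.8% of all genes, with a median of -0.08. The median was -0.01 on the deposited scale and -0.15 with medians centred, beside 0.08 and -0.06 over all genes. Of 34 splicing genes, the SR protein kinases Clk1 (0.30 ± 0.092) and Clk4 (0.24 ± 0.065) and the SR protein Srsf5 (0.25 ± 0.070) were higher at an unadjusted p under 0.05, and Srsf1 was lower (-0.22 ± 0.065). That is 3 higher and 1 lower, beside 3.61% and 2.64% of all genes. Clk1 and Clk4 also differed in ischemia alone, by 0.28 and 0.16. Edn1, the vasoconstrictor endothelin 1, was the 1 of 25 growth factor genes at that threshold (0.48 ± 0.194), beside 3.61% of all genes: preparation 2 gave 0.88 and preparation 1 gave 0.08, so the preparations did not match. Of 26 collagen and matrix genes and 13 clock genes, 0 were at that threshold in limma.

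**Figure D4:**
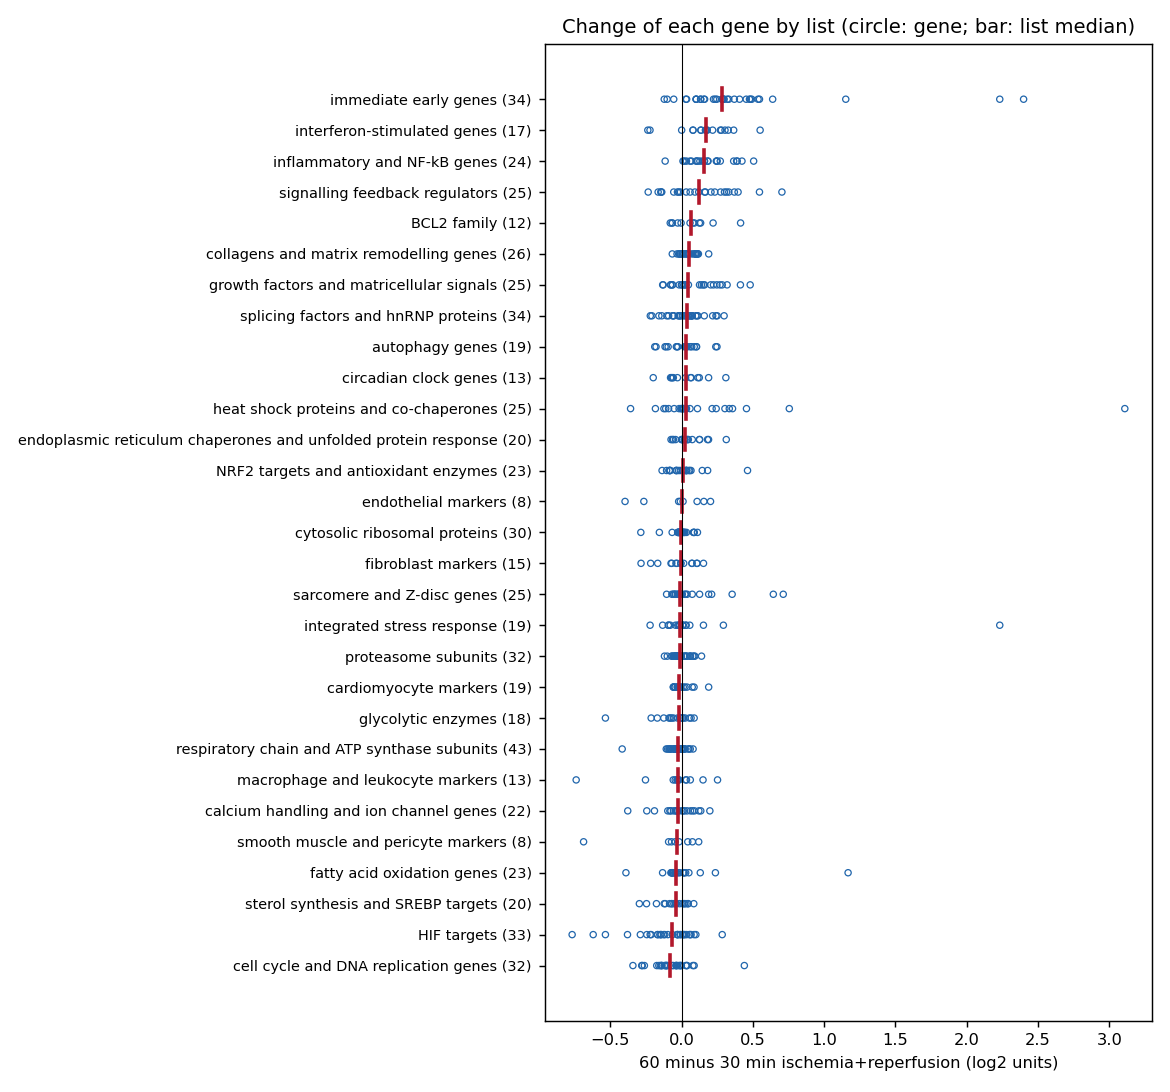
Difference between 60 and 30 min of ischemia+reperfusion (log2 units) for each tested gene (circles) of 29 lists, with the number of tested genes in brackets and list medians as bars. The immediate early list has the highest median (0.29) and the cell cycle list the lowest (-0.08); the heat shock list centres near 0 with Hspa1a at 3.11.

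The 24 genes named by smallest p, 12 in each direction, hold further genes outside the lists. Bcor, a corepressor partner of BCL6, was at 10.14, 10.10, 10.08 and 10.10 at 60 min, against 9.62, 9.80, 9.56 and 9.70 at 30 min, a difference of 0.43 ± 0.081 (adjusted p = 0.223 in limma). Bcl9, a coactivator of beta-catenin, differed by 0.46 ± 0.098, and Zbed3, a protein that binds axin in the same pathway, by 0.38 ± 0.080. Id4, an inhibitor of basic helix-loop-helix factors, differed by 0.60 ± 0.121 on its dimmest probe set; brighter ones gave 0.60, 0.04 and 0.55, none at an unadjusted p under 0.05. Atf7ip, a partner of the histone methyltransferase SETDB1, differed by 0.42 ± 0.088. Tpbgl differed by 0.81 ± 0.15 and Tmem185b by 0.69 ± 0.139; a brighter probe set of Tmem185b gave 0.04. The 60 min arrays lay wholly above the 30 min arrays for all 12 higher genes. As these genes were picked for small p, the lack of overlap follows in part from the choice.

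Icmt had the smallest p of all. Icmt encodes the methyltransferase that finishes prenylated proteins such as RAS. It was at 6.69, 7.32, 7.02 and 6.52 at 60 min, against 7.87, 7.64, 7.44 and 7.83 at 30 min, with no overlap but a wide spread at 60 min. The difference was -0.80 ± 0.1 (adjusted p = 0.103 in limma), and without the 30 min array that stood apart it was -0.90 ± 0.0996, which passed (adjusted p = 0.0307). In ischemia alone Icmt differed by 0.35, and the difference between the arms' changes was -1.15 ± 0.142 (adjusted p = 0.0927 in limma, 0.0318 without the 120 min groups). A second probe set of nearly equal brightness gave -0.48, with an unadjusted p of 0.086 in limma.

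Gsg1 had the largest negative difference among the named genes. It was at 4.62, 4.64, 4.77 and 4.77 at 60 min, against 8.03, 8.05, 7.25 and 8.08 at 30 min, a difference of -3.15 ± 0.596 (adjusted p = 0.223 in limma, 0.0124 without the 120 min groups). On this scale 4 stands for an intensity of 0, so Gsg1 was close to the floor at 60 min, and the single tested probe set for it is of a kind that can hybridise with related transcripts. At 0, 10, 30, 60 and 120 min of ischemia+reperfusion it averaged 7.58, 7.12, 7.85, 4.70 and 6.25, and in ischemia alone 7.29, 7.29, 7.88, 8.07 and 7.50. At 120 min, arrays of the ischemia+reperfusion arm ran from 4.73 to 8.01, and those of the ischemia arm from 5.89 to 8.11. Without the 30 min array that stood apart, the difference was -3.36 ± 0.588.

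Fsd2, a muscle protein with fibronectin and SPRY domains, was at 8.73, 8.71, 8.89 and 8.57 at 60 min, against 9.45, 9.33, 9.69 and 9.78 at 30 min. The groups did not overlap and the difference was -0.84 ± 0.124 (adjusted p = 0.105 in limma, 0.0303 without the 120 min groups). Ddx10, a DEAD-box RNA helicase, differed by -0.44 ± 0.070, and Prph, the intermediate filament peripherin, by -0.56 ± 0.115. For the remaining lower genes the probe sets of a gene disagreed. Of the 12 lower genes, 8 had a brighter tested probe set, and in 7 of the 8 the brightest differed by under 50% as much. Eif4e, the cap-binding translation factor, gave -1.03 on a dim probe set and -0.02 on the brightest. Ssb, the La RNA-binding protein, gave -0.49 and 0.04; its arrays at 60 min split by duplicate, at 9.49 and 9.45 against 7.90 and 7.96. Exoc3, a subunit of the exocyst, gave -0.91 and 0.06, and Trpm7, a channel fused to a kinase, -0.35 and 0.12. Tpd52l2 gave -0.94 and -0.04, Snx18, a sorting nexin, -0.61 and -0.04, and Specc1 -0.39 and 0.05.

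Markers of the labelled cell type were bright at both times. All 19 cardiomyocyte markers tested, of 20 listed, were free of an unadjusted p under 0.05 in limma, and their summed intensity ran from 164463 to 169243 at 60 min, against 165104 to 170745 at 30 min. Fibroblast markers summed to 63068 to 68436 at 60 min, against 61363 to 69834 at 30 min, and endothelial markers to 2630 to 3192 at 60 min, against 2851 to 3196 at 30 min. Smooth muscle markers summed to 16008 to 19512 at 60 min, against 16353 to 19982 at 30 min. Each of these ranges overlapped between the groups. Fibroblast and smooth muscle transcripts were thus present beside those of myocytes at both times, and their part in the results was not tested. Egfl7, an endothelial marker, differed by -0.40 ± 0.145 on 1 probe set and by 0.36 on another.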

How the data were processed

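Affymetrix rat arrays measured total RNA from cultured neonatal rat ventricular myocytes. The authors deposited linear probe set intensity values between -1725 and 17404, with 15.8% negative; how they were computed and scaled is not given in the sources used here. RNA was column-purified and amplified, per the labels' protocols. The number of arrays limits the precision. The table held 31042 probe sets, of which 20826 carried 1 gene symbol (20758 matched by gene identifier), 436 several and 9780 none in the platform annotation.

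From the deposited intensity, values were quantile-normalised over 40 arrays, floored at 0 and transformed as log2(value + 16), which understates changes of dim probe sets. Probe sets above the 40th percentile of mean level (6.48, an intensity of 73.2) were tested: 18625, with 14311 of 1 symbol and 10483 genes. Deposited medians of the 8 arrays ran from 127 to 155. Duplicates were averaged and all 10 groups fitted with limma 3.58.1 in R 4.3.3 (lmFit, eBayes), with preparation as a block, as the labels name shared preparations; the differences between preparations at 60 and 30 min correlated at 0.53. Residual degrees of freedom were 9, with 2.27 added by the prior. The contrast 60 minus 30 min, and its difference from that in ischemia alone, were adjusted by the Benjamini-Hochberg method. The fit was tested on simulated data.

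Named genes were the 12 per direction with the smallest p, the same sign in both preparations and 1 symbol, since fewer were called, plus the 2 members of smallest p in each list. A gene's list value came from its brightest probe set. Other genes named from the lists, and those named from the fit without the 120 min groups, were chosen after their values were seen. The members, lists, tests and doubted arrays were chosen with earlier results of these data known. Promoters came from RefSeq (GRCr8), and no genome was used.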

Additional observations from a re-analysis of the deposited data

Results flagged for a closer look

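Within the 4 arrays of a group, 1 array lay far from the other 3 for 10 of 188 values of the genes described (5.32%), and chance alone gives about 1 in 20. The gap to the nearest array is given as a share of the group's range. Of the 10, 4 were the 30 min array of preparation 2, duplicate 1. It was low for Gsg1 (7.25, others 8.03 to 8.08, share 0.936), for Tcap (10.63, others 11.04 to 11.10, share 0.872), for Atg12, an autophagy conjugate (9.59, others 9.94 to 9.97, share 0.906), and for Myh11, smooth muscle myosin (4.56, others 7.73 to 8.25, share 0.859). Myh11 differed by -0.69 ± 0.499 with that array and by -1.51 ± 0.326 without it (adjusted p = 0.224 in limma). Its 60 min array of the same preparation and duplicate was also low, at 4.98.

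At 60 min, the array of preparation 1, duplicate 2, was low for the brighter Dnaja1 probe set (12.26, others 12.34 to 12.35, share 0.853) and high for Xbp1 (12.05, others 11.87 to 11.89, share 0.887). The 60 min array of preparation 1, duplicate 1, was low for Tkt, the transketolase of the pentose phosphate pathway (11.19, others 11.52 to 11.56, share 0.875). At 30 min, preparation 2, duplicate 2, was high for Hspb1 (13.16, others 13.01 to 13.03, share 0.888) and for Mvk, mevalonate kinase (8.07, others 7.95 to 7.96, share 0.937). Preparation 1, duplicate 2, was high for Syvn1 (10.07, others 9.94 to 9.95, share 0.956).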

How the results depend on the processing

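Across 23 alternatives, the differences of the 24 genes named by smallest p kept their sign in all 543 values, and 38 of these passed the threshold. These genes were picked for a small p and the same sign in both preparations. Alternatives that leave out only other groups change the standard error and not the difference. The kept signs thus follow in part from the choice and are not independent support. The count of calls at 60 against 30 min remained 0 on the deposited scale, with array medians centred, under pseudocounts of 4 and 64, without a filter, with a filter at the 60th percentile, and with the ischemia+reperfusion groups alone. With no replicate block it was 0 as well, and the pairing by preparation changed no call; the arms' test also gave 0. It was 2 (2 higher) in the fit of the 60 and 30 min groups alone, Hspa1a and a probe set with 2 gene symbols, and 16 (9 higher, 7 lower) with arrays as samples and a random block, where duplicates count as replicates. Leaving out 1 array in turn gave 0 to 2 calls, 0 higher and 0 to 2 lower, and 0 to 2 for the arms' test, with 2 when duplicate 2 of preparation 2 at 60 min was left out. Icmt passed when duplicate 1 of preparation 2 at 30 min was left out, and Icmt and an unnamed probe set when duplicate 2 of preparation 1 at 60 min was. Without 4 doubted arrays of other groups (duplicate 1 of preparation 1 at 0 min ischemia, duplicate 1 of preparation 2 at 10 min ischemia+reperfusion, and the 120 min pair) it was 6 (5 higher, 1 lower), and 9 (5 higher, 4 lower) with the doubted 30 min array left out too. Alternatives added after the values were seen gave 10 (7 higher, 3 lower) without the pair of doubted 120 min arrays, 13 (8 higher, 5 lower) without the 120 min groups, and 14 (6 higher, 8 lower) without those and the doubted 30 min array. The arms' test gave 2 calls without a filter, 3 in each fit without doubted arrays, 5 without the 120 min groups and 3 without those and the doubted 30 min array. Medians of 7 of 29 lists kept their sign on both other scales, 5 above and 2 below 0. The median of all genes itself was 0.08 on the deposited scale and -0.06 with medians centred, so a sign is not a comparison with all genes. Every alternative planned was run, though the fits without the ischemia groups give no value for the arms' test. Dim probe sets limit what can be read: a value near the floor carries little signal over background.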

Other observations

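Without the 120 min groups, Slfn2, a Schlafen family gene, passed at 0.46 (adjusted p = 0.0449 in limma), but not with the doubted 30 min array left out as well (0.281): its arrays were at 8.28, 8.60, 8.34 and 8.18 at 60 min, against 7.93, 7.85, 7.69 and 8.09 at 30 min. In the same fit, Gemin2, a subunit of the SMN complex that assembles spliceosomal particles, had a difference between the arms' changes of -0.93 (adjusted p = 0.0447 in limma), and Cysrt1 had 1.24 (adjusted p = 0.0447). Neither passed the arms' test with the doubted 30 min array left out as well, nor in any other setting. Ecpas, an adaptor and scaffold of the proteasome, differed by -0.997 and passed without the 120 min groups and the doubted 30 min array (adjusted p = 0.0331 in limma), and so did Pwwp3a, which differed by -0.54. The preparations' own differences had the same sign for 61.4% of the probe sets.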
